A study of Glycine max with 72 samples.

Results

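2mlpa is a low phytic acid (lpa) soybean line whose genotype is labelled MIPS1/mrp-l/mrp-n, with the mutant alleles of both MRP transporter genes beside the normal allele of MIPS1. Its germination course comprised 9 of the 72 libraries of the series, which were chosen by the genotype and stage on their labels: 3 of mature dry seeds (stage 1), 3 of seeds imbibed for 8 h (stage 2) and 3 of seeds with an emerged radicle (stage 3). The sister lines 2MWT (MIPS1/MRP-L/MRP-N), 2MWT-L (MIPS1/MRP-L/mrp-n) and 2MWT-N (MIPS1/mrp-l/MRP-N), with normal phytic acid and 9 libraries each, served for the comparison between lines, and all 4 lines share the normal MIPS1 allele. Each genotype is 1 line and each library 1 pool of 10 seeds, so the spread between replicates is that between seed pools of 1 line. The dry seeds were milled whole. At stages 2 and 3 the seeds had been surface-sterilized and germinated in the dark, at the same set temperature for both stages and all lines. They were freed of seed coats and radicles before grinding. The dry seeds had no germination step. Stage, handling, germination temperature and the tissue that was kept thus cannot be told apart in any comparison with stage 1. In bulk RNA, fewer cells of a type and less RNA per cell cannot be told apart either. No marker of the seed coat or of the radicle was among the annotated genes, so these tissues were not checked, whereas 6 storage globulin genes, which mark seeds, summed to 5104 to 17220 TPM, a level that allows for gene length, in the libraries of stages 1 and 2. The 9 libraries held 25379763 to 30890802 counted read pairs (median 29821018) on 34252 to 40484 genes.

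Phytic acid is the main store of phosphorus in seeds, and MRP proteins are ABC transporters that carry it into the storage vacuole. A mature dry seed keeps messenger RNA made during late maturation, which includes transcripts of storage proteins and of the late embryogenesis abundant (LEA) proteins that protect dry cells. During imbibition the seed resumes metabolism and transcription, and around radicle emergence transcripts for the use of reserves and for seedling growth replace those of maturation. The question addressed here was which transcripts changed between consecutive stages within 2mlpa, and whether the change differed from that of the normal lines.

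Levels are given as TMM-normalized CPM (normalized CPM), the counts of a gene as a rate over the scaled size of the library and the scale on which fold changes were tested, and as TPM, a like rate divided by gene length that serves to compare genes. A gene was called a DEG where the quasi-likelihood test of edgeR gave a false discovery rate (FDR, Benjamini-Hochberg, over 31186 genes) under 0.01 and the absolute log2 fold change was over 1. A level of 3 counts, the floor at or below which a gene was treated as not detected in a library, equals 0.168 to 0.172 normalized CPM at stage 1, 0.0867 to 0.109 at stage 2 and 0.0657 to 0.0696 at stage 3, and a fold change against a stage with 0 counts in every library is given as at least the ratio to that floor. Other fold changes from levels near the floor depend on the prior count of the fit. Genes with the ending -like carry the name of their Arabidopsis homolog, and their roles are those known in Arabidopsis. Names were at hand for 1425 of the tested genes and homologs for 2491, of which 518 were higher and 362 lower at stage 2 than at stage 1, and 615 higher and 664 lower at stage 3 than at stage 2. They came from gene lists that the study had drawn up on this series, so a list below is a selected sample of its family and no independent evidence of a direction. Read pairs that matched several genes were not counted and strand was not used, so values of near-identical copies and of overlapping genes are uncertain.

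The counts were spread over more genes at each later stage. In dry seeds 137, 142 and 157 genes accounted for 50% of the counts of the 3 libraries, against 614, 874 and 730 genes in imbibed seeds and 2031, 2012 and 2208 genes after radicle emergence, with no overlap between stages. The 10 most abundant genes of each library took 17.7% to 18.3% of its counts at stage 1, 11.1% to 13.6% at stage 2 and 5.16% to 6.13% at stage 3. Genes at 1 TPM or more numbered 19086 to 19568 at stage 1, 25087 to 26190 at stage 2 and 28826 to 29958 at stage 3, whereas those at 1000 TPM or more fell from 121 to 130 through 93 to 105 to 47 to 57. Of the 100 most abundant genes of stage 1, 78 were also among the 100 most abundant of stage 2, and 26 among those of stage 3. The 100 most abundant genes of dry seeds held 43.8% to 44.9% of the counts at stage 1, 25% to 28.5% at stage 2 and 4.67% to 6.98% at stage 3.

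**Figure D1:**
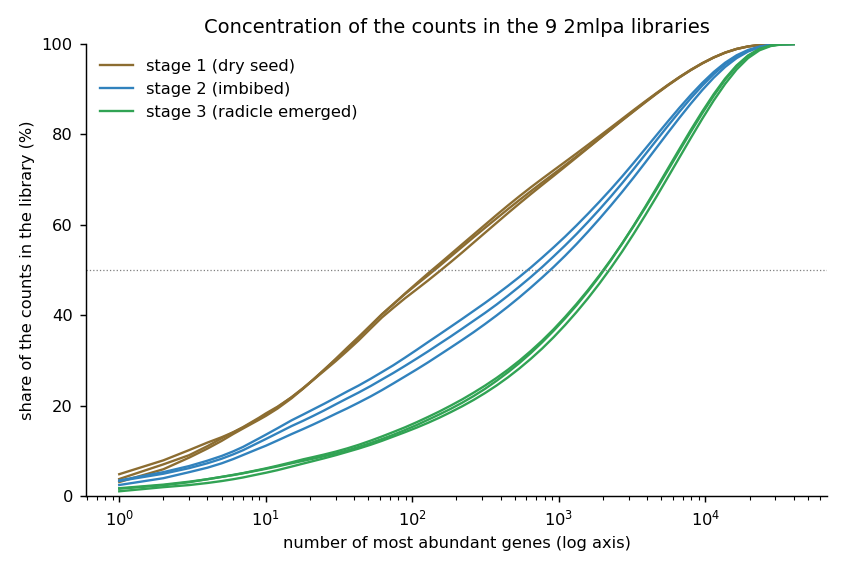
Share of the counts (%) held by the most abundant genes of each 2mlpa library, against the number of genes on a log axis, with 1 line per library coloured by stage. The 3 dry-seed libraries reach 50% (dotted line) at 137 to 157 genes, the imbibed at 614 to 874 and those with an emerged radicle at 2012 to 2208.

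The split of the changes between higher and lower depended on how the counts were scaled. TMM assumes that most genes do not change, and its mean factor was 0.582 at stage 1, 1.06 at stage 2 and 1.63 at stage 3. A gene that kept its share of the counts therefore lay at -0.86 on the log2 scale of the TMM fold change from stage 1 to stage 2 and at -0.63 from stage 2 to stage 3. Between stages 1 and 2, 9043 genes (29.0%) were DEGs, 5665 higher (18.2%) and 3378 lower (10.8%) in imbibed seeds. The split was 5084 higher and 3976 lower with RLE factors and 4806 higher and 4346 lower with upper-quartile factors. With library totals in place of TMM factors, which moved the median of all genes from 0.12 to 1.00, it was 12936 higher and 746 lower. From stage 2 to stage 3, 10696 genes (34.3%) were DEGs, 5346 higher (17.1%) and 5350 lower (17.2%), or 10596 higher and 2853 lower on library totals, where the median moved from 0.04 to 0.70. The splits on library totals are over 31451 genes and are the background for list counts given in that setting. Levels and fold changes below are on the TMM scale unless stated otherwise, and where a call given for a named gene was lost on library totals this is said. Both comparisons use the stage 2 libraries, so their values are given side by side and were not compared with each other.

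On the TMM scale and at imbibition, the median log2 fold change of the DEGs was 2.03 for those higher and -1.53 for those lower, and 1637 rose but 161 fell by more than 3 on the log2 scale. From stage 2 to stage 3 the medians were 1.92 and -1.97, with 1143 and 1297 genes past 3. Replicates were closer to each other than to any library of another stage: the median absolute log2 difference between 2 libraries was 0.17 to 0.36 within a stage, 0.60 to 0.74 between stages 1 and 2, and 0.64 to 0.76 between stages 2 and 3. Replicate 3 of the dry seeds lay farthest from stage 2 (0.72 to 0.74, against 0.60 to 0.66 for the other 2), and replicate 2 of stage 2 lay nearest to stage 3 (0.64 to 0.68, against 0.71 to 0.76). Without replicate 3 of stage 1 the count of DEGs at imbibition was 7947, and without replicate 2 of stage 2 the count from stage 2 to stage 3 was 10249.

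The transcripts of the mutated transporter genes were present at all stages in 2mlpa. The counts are per gene and do not tell alleles apart, so they check neither mutation. MRP-L (Glyma.19G169000, chromosome 19, 42961519 to 42970330 of Wm82.a2.v1) had 43.9, 59.7 and 56.4 normalized CPM in the 3 libraries of dry seeds, 113, 101 and 122.8 at stage 2 and 65.5, 47.8 and 47.7 at stage 3. The stage 2 libraries were above all others, above stage 1 by a call (log2 fold change 1.07 ± 0.19 (SE), FDR 0.000361), and the level fell again at stage 3 (log2 fold change -1.07 ± 0.19 (SE), FDR 0.000305). MRP-N (Glyma.03G167800, chromosome 3, 38202353 to 38210883) had 29.3, 32.3 and 28.96 normalized CPM in the 3 libraries of dry seeds, 68.6, 56.7 and 66.9 at stage 2 and 53.02, 40.1 and 33.3 at stage 3. It rose at imbibition (log2 fold change 1.09 ± 0.19 (SE), FDR 0.000288), and its later difference of -0.60 (0.02 on library totals) was not called. Both rises at imbibition lost their call with RLE or upper-quartile factors and with DESeq2. That of MRP-L was also lost without replicate 1 of stage 1 or replicate 3 of stage 2, and its fall without replicate 3 of stage 2, without replicate 2 or 3 of stage 3, and on library totals. MIPS1 (Glyma.11G238800, chromosome 11, 33319226 to 33322244), the enzyme that makes the inositol ring from glucose 6-phosphate, had 187, 143 and 207 normalized CPM in the 3 libraries of dry seeds, 38.9, 28.7 and 27.95 at stage 2 and 3.76, 5.96 and 9.48 at stage 3. Its 3 stages did not overlap, and it fell at imbibition (log2 fold change -2.49 ± 0.29 (SE), FDR 1.04e-05) and again at stage 3 (log2 fold change -2.31 ± 0.29 (SE), FDR 1.43e-05), also on library totals and with each library left out.

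Among the 11 tested genes of inositol phosphate and phosphate use, 2 were higher and 2 lower at imbibition, and 3 were higher and 6 lower at stage 3. The first split was 2 and 5 with RLE or upper-quartile factors and 3 and 0 on library totals, where the second was 4 and 4. The list had medians of -0.63 (0.31 on library totals) and -1.21 beside 0.12 and 0.04 over all genes, of which 18.2% were higher and 10.8% lower at imbibition and 17.1% and 17.2% at stage 3. MIOX1-like (Glyma.08G199300), a myo-inositol oxygenase that opens the inositol ring, held 165, 136 and 248 normalized CPM at stage 2 and 13.4, 5.102 and 4.41 at stage 3 (log2 fold change -4.58 ± 0.41 (SE), FDR 6.59e-07). INT2-like (Glyma.05G142500), an inositol transporter, went from 437, 297 and 342 to 46.5, 29.8 and 25.1 over the same step (log2 fold change -3.41 ± 0.29 (SE), FDR 4.22e-07). Both thus fell at the same step as MIPS1, and both calls held on library totals. PAP29-like (Glyma.16G016000), a purple acid phosphatase, of the enzymes that release phosphate from esters, took the opposite course, with 9.79, 12.9 and 19.7 normalized CPM in the 3 libraries of dry seeds, 4.63, 7.602 and 3.67 at stage 2 and 82.7, 76.02 and 57.9 at stage 3. Every stage 3 library was above all of the earlier ones (log2 fold change 3.76 ± 0.31 (SE), FDR 3.03e-07), and the stage 2 libraries were below those of stage 1 (-1.41), a call lost on library totals. Of the genes for inositol phosphate kinases, which add phosphate on the way to phytic acid, ITPK4 Glyma.18G038800 fell from 3.54 ± 0.525 (SD, n = 3) to 0.639 ± 0.158 normalized CPM at stage 3 (-2.46), although it overlaps another gene, and ITPK4 Glyma.11G218500 fell by 1.11, a call lost on library totals. ITPK1 Glyma.09G206100 differed by -0.90 and was not called, and ITPK1 Glyma.01G016700 had 0 counts in all 9 libraries, which allows up to 3 counts in each. GDPD1 Glyma.19G098500, a glycerophosphodiester phosphodiesterase, fell from 78.4, 50.2 and 47.7 through 18.7, 17.98 and 18.3 to 4.21, 5.08 and 3.78 normalized CPM, and its first step of -1.68 lost its call on library totals, where the second (-2.07) kept it. The study names a second GDPD1 gene, whose values are not given here. Of the 3 tested genes it names for phosphate homeostasis, 1 was lower and 0 higher at stage 3, with a median of -0.23.

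Storage protein transcripts stayed abundant through imbibition and fell after radicle emergence. All 6 tested storage globulin genes were lower at stage 3 than at stage 2 (median -4.06), whereas 1 of 6 was lower at imbibition (median -1), and the 6 calls held on library totals and with each library left out. Of all genes 10.8% were lower at imbibition and 17.2% at stage 3. CRA1-like Glyma.03G163500, a 12S globulin, had 83266, 53171 and 29765 normalized CPM in the 3 libraries of dry seeds, 34809, 21842 and 31963 at stage 2 and 2237, 4160 and 2691 at stage 3. The dry-seed libraries overlapped those of stage 2, of which 1 (21842) lay below all of them. The stage 3 libraries were below all others (log2 fold change -3.29 ± 0.54 (SE), FDR 0.000156). PAP85-like Glyma.02G145700, a vicilin-like globulin, had 2871, 1913 and 1560 normalized CPM in the 3 libraries of dry seeds, 1126, 618 and 976 at stage 2 and 32.2, 31.5 and 9.04 at stage 3, and fell at the second step (log2 fold change -5.22 ± 0.49 (SE), FDR 1.1e-06). In TPM the 6 genes summed to 17220, 10150 and 5104 in the 3 dry-seed libraries, 13568, 9602 and 12812 at stage 2, and 1381, 2231 and 1484 at stage 3. Replicate 3 of the dry seeds was thus the lowest of its stage and below all 3 imbibed libraries. Both tested oil body genes fell at both steps, SEIPIN1-like Glyma.09G250400, of oil body formation, from 529, 399.5 and 469 through 83.7, 62.5 and 82.04 to 8.15, 6.44 and 5.24 normalized CPM (-2.61 and -3.52). OLEOSIN5-like Glyma.19G063400, an oil body coat protein that overlaps another gene, went from 7925, 5916 and 4595 through 2212, 1849 and 2559 to 192, 266 and 119.8 (-1.48 and -3.52), and its first call was lost on library totals and without replicate 1 of stage 1 or any 1 library of stage 2.

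LEA transcripts were lower at stage 3 as well. Beside 10.8% of all genes lower at imbibition and 17.2% at stage 3, 6 of 11 tested LEA and seed maturation genes were lower at imbibition (median -1.31) and 10 lower at stage 3 (median -5.29). The first count was 3 without replicate 1 or 2 of stage 1 or replicate 2 or 3 of stage 2, and 1 on library totals, whereas the second was 10 in all of these. EM6-like Glyma.01G119600, an Em-type LEA protein, had 1042, 810.0 and 869 normalized CPM in the 3 libraries of dry seeds, 312, 198 and 251 at stage 2 and 0.856, 0.744 and 0.533 at stage 3. It fell at imbibition (log2 fold change -1.84 ± 0.24 (SE), FDR 2.83e-05), a call lost on library totals, and then more steeply (log2 fold change -8.47 ± 0.33 (SE), FDR 6e-09), the largest fall among the genes named by rule at that step. EM6-like Glyma.03G056000, with 10307 TPM at stage 1 (chromosome 3, 7705307 to 7706624), had 10728, 9339 and 12856 normalized CPM in the 3 libraries of dry seeds, 2264, 2070 and 1916 at stage 2 and 25.2, 11.1 and 6.700 at stage 3, and no stage overlapped another (-2.40 and -7.18). EM1-like Glyma.18G203500 had 568, 334 and 435 normalized CPM at stage 2 and 4.96, 1.86 and 1.32 at stage 3 (-7.36). LEA genes Glyma.13G363300 and Glyma.16G031300 were among the 5 most abundant genes of imbibed seeds, at 14579 and 13116 TPM, and held 519 and 734 TPM at stage 3 (-5.63 and -4.98). The member that rose was L1L-like Glyma.17G005600, a LEC1-like factor of embryo development, with 0, 0.260 and 0.0319 normalized CPM at stage 2 and 2.77, 1.36 and 1.07 at stage 3 (log2 fold change 4.01 ± 0.91 (SE), FDR 0.00195), a call lost without replicate 3 of stage 2.

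Raffinose, heat shock and redox genes fell in part, beside 10.8% of all genes lower at imbibition and 17.2% at stage 3. The shares of all genes higher were 18.2% and 17.1%. All 5 tested genes of the raffinose family sugars, which accumulate in maturing seeds, were lower at stage 3 (median -4.83), and 3 were lower at imbibition, 1 without replicate 2 of stage 2 and 0 on library totals. Galactinol synthase 1 Glyma.19G219100, the first enzyme of that pathway, had 507, 455 and 303 normalized CPM in the 3 libraries of dry seeds, 134, 83.9 and 150.1 at stage 2 and 1.71, 1.29 and 1.85 at stage 3, with steps of -1.78, a call lost on library totals, and -6.24. Of 21 heat shock protein genes, 2 were higher and 6 lower at imbibition (6 and 1 on library totals), and 0 were higher and 10 lower at stage 3. The first count of lower genes was 3 without replicate 2 or 3 of stage 2. The 17.6 kDa class I gene Glyma.01G106800 had 470.4, 478 and 457 normalized CPM in the 3 libraries of dry seeds, 47.7, 45.2 and 56.5 at stage 2 and 1.46, 2.803 and 2.74 at stage 3, with steps of -3.23 and -4.41, and both calls held on library totals. Of 12 redox and detoxification genes, 1 was higher and 5 lower at imbibition (2 and 0 on library totals, and 3 lower without replicate 2 of stage 2), and 1 was higher and 7 lower at stage 3. PER1-like Glyma.08G088000, a seed 1-Cys peroxiredoxin, went from 96.2 ± 33.3 (SD, n = 3) to 0.917 ± 0.438 normalized CPM at the second step (-6.71), and glutamate-cysteine ligase Glyma.01G219900, of glutathione synthesis, from 1308, 804 and 1047 to 26.98, 14.5 and 7.86 (-6.00). All 5 tested amylase and water-stress sugar genes were lower at stage 3 (4 on library totals), and 0 were higher and 2 lower at imbibition (2 and 1 on library totals). Among them was BAM1-like Glyma.09G168300, a beta-amylase (log2 fold change -4.54 ± 0.30 (SE), FDR 5.57e-08).

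**Figure D2:**
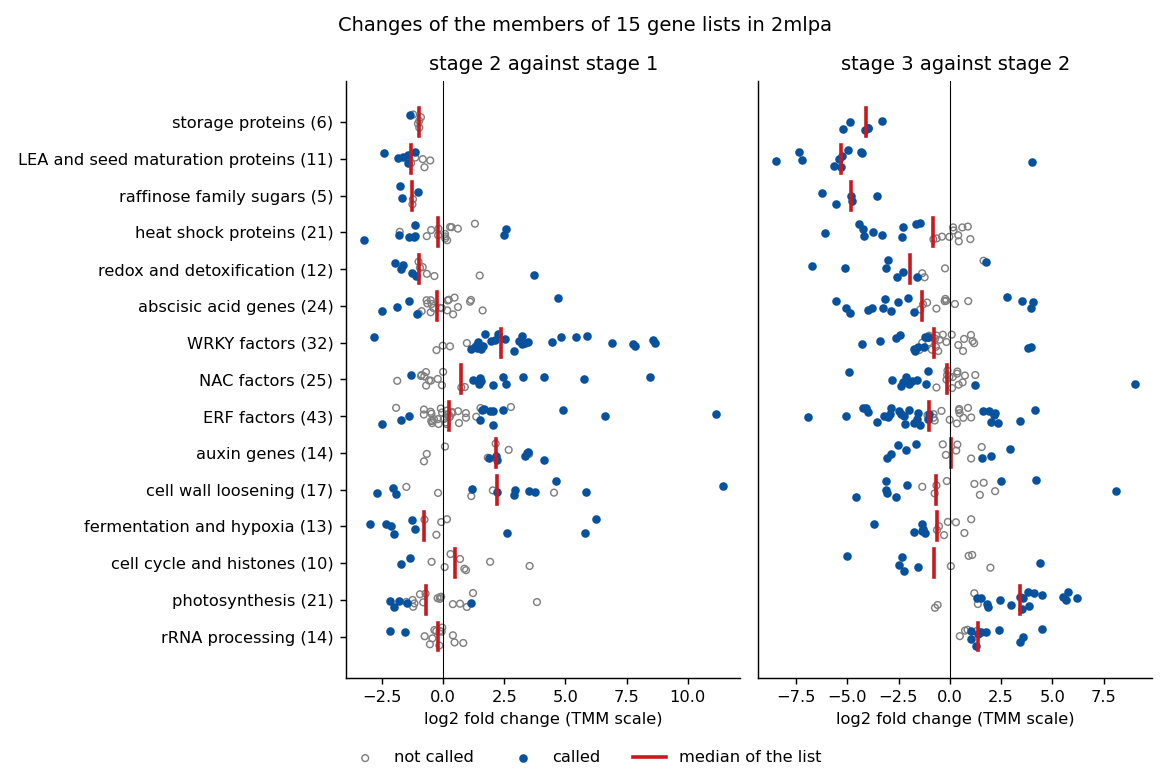
Log2 fold changes (TMM scale) of the tested members of 15 gene lists in 2mlpa, from stage 1 to stage 2 on the left and from stage 2 to stage 3 on the right, with the number of members in brackets. Filled points are DEGs, open points are not, and the red bar is the median of the list: all 6 storage protein genes are called below 0 on the right, 26 of 32 WRKY genes above 0 on the left and 17 of 21 photosynthesis genes above 0 on the right.

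Most of the tested WRKY factors, which act in defence and stress signalling, rose at imbibition. Of 32 WRKY transcription factor genes, 26 were higher and 1 lower in imbibed than in dry seeds (median 2.37, against 18.2% of all genes higher), and the count was 24 to 26 with each library left out, 24 with upper-quartile factors and 28 on library totals. WRKY15 Glyma.17G168900 had 4.67, 6.81 and 4.58 normalized CPM in the 3 libraries of dry seeds, 37.5, 50 and 49.2 at stage 2 and 84.7, 76.6 and 60.03 at stage 3, so that stages 1 and 2 did not overlap (log2 fold change 3.09 ± 0.22 (SE), FDR 2.38e-07). WRKY6-like Glyma.15G110300, with 49.8, 67.7 and 28.2 in dry and 189, 149 and 225 in imbibed seeds, rose by 1.95 on the log2 scale, and the one that fell, Glyma.08G142400, went from 417, 329 and 393 to 59.6, 44.9 and 56.8 (-2.82). WRKY22-like Glyma.06G172600, which overlaps another gene, was the most abundant at stage 1 and did not differ by a call (-0.01 ± 0.22). At stage 3, where 17.1% of all genes were higher and 17.2% lower, 2 WRKY genes were higher and 11 lower (median -0.79). On library totals 8 were higher and 6 lower. Of 25 NAC genes 11 were higher and 1 lower at imbibition, 8 to 11 higher with each library left out, and of 43 ERF genes 10 were higher and 3 lower, or 22 and 0 on library totals. Over all genes 10.8% were lower at imbibition. At stage 3 10 NAC genes were lower and 2 higher, and 21 ERF genes were lower and 8 higher, or 7 and 3, and 16 and 12, on library totals. The 3 NAC genes with the highest mean TPM, all of ATAF1 type, were not called at imbibition: Glyma.06G114000 had 2782, 2761 and 2043 normalized CPM in dry seeds, 1699, 1371 and 1618 in imbibed seeds and 148, 253 and 258 at stage 3, and fell at the second step (-2.83). Of the 75 genes annotated with the response to chitin, a component of fungal walls, 36 were higher and 2 lower at imbibition, 31 higher without replicate 3 of stage 2, and 7 were higher and 29 lower at stage 3, or 19 and 15 on library totals.

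Some genes were first detected at imbibition. The rule was at most 3 counts in every library of dry seeds, with a mean of 5 TPM or more and at least 2 TPM in every library at stage 2. By it 68 genes met this description, and 0 genes were lost in the opposite sense. From stage 2 to stage 3 45 genes appeared and 12 were lost by the same rule, and between stages 1 and 3 it was 357 and 17. The protein EXORDIUM gene Glyma.02G208200, a cell expansion protein, had 0.0569, 0.0573 and 0 normalized CPM in the 3 libraries of dry seeds, 23.8, 33.4 and 33.9 at stage 2 and 7.39, 5.98 and 4.15 at stage 3, and the dry-seed values rest on 1, 1 and 0 counts. Pectinesterase Glyma.03G215800, which loosens or stiffens pectin, was at 0 in all dry-seed libraries and at 11.7, 8.41 and 13.1 normalized CPM in imbibed seeds, at least 65.2-fold above the floor of stage 1. CBF2-like Glyma.17G131900, a DREB factor that responds to cold, was at 0 and then at 7.77, 10.2 and 9.46 (at least 53.7-fold), and at 2.37, 2.71 and 0.788 at stage 3 (-2.22). The calcium-transporting ATPase Glyma.03G157700 was at 0 and then at 7, 6.73 and 6.64 (at least 39.9-fold). The rule asks for presence in every library of the later stage, so the presence of its members in every imbibed library is no further result.

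Other genes rose from low levels in dry seeds. Sugar transport protein 13 Glyma.01G238800, a hexose importer, had 2.22, 2.29 and 1.45 normalized CPM in the 3 libraries of dry seeds, 116, 96.7 and 169 at stage 2 and 25.7, 50.8 and 84.2 at stage 3. It rose at imbibition (log2 fold change 6 ± 0.43 (SE), FDR 2.49e-07). Dirigent proteins direct the coupling of lignan and lignin units, and 3 of their genes rose together. Dirigent protein 2 Glyma.03G147700 had 0.171, 0.344 and 0.112 normalized CPM in the 3 libraries of dry seeds, 21.6, 21.2 and 24.5 at stage 2 and 1.89, 4.27 and 4.29 at stage 3 (6.73 and then -2.69). Dirigent protein 3 genes Glyma.01G127200 and Glyma.03G044500 rose by 7.82 ± 0.54 and 5.29 ± 0.50 (SE), from 0.228, 0 and 0.0559 to 17.4, 28.8 and 20.6 and from 0.911, 0.630 and 0.112 to 17.4, 23.8 and 23.5 normalized CPM. The NDR1/HIN1-like protein 10 gene Glyma.03G201000 rose from 0.0569, 0 and 0.280 to 18.2, 18.01 and 22.8 (7.39), and DETOXIFICATION 49 Glyma.01G216600, a MATE transporter, from 0.228, 0.115 and 0 to 23.7, 16.5 and 34.3 (7.72) before it fell to 2.27, 0.920 and 0.997 at stage 3. Pyruvate decarboxylase 4 Glyma.01G118000, of ethanol fermentation, rose from 0.342, 0 and 0.280 to 18.3, 8.01 and 21.9 (6.24). Over the 13 genes of fermentation and the response to low oxygen, 3 were higher and 6 lower at imbibition (4 and 4 on library totals), and 0 were higher and 6 lower at stage 3 (2 and 2). Of all genes 18.2% were higher and 10.8% lower at imbibition, and 17.1% and 17.2% at stage 3. ADH1-like Glyma.13G035200, an alcohol dehydrogenase, had 884, 809.6 and 685 normalized CPM in the 3 libraries of dry seeds, 178, 116 and 182 at stage 2 and 18.9, 11.9 and 5.56 at stage 3, with steps of -2.32 and -3.71 that both held on library totals. Other falls at imbibition that held on library totals were those of Glyma.19G214300, named only as At2g47485, from 98.4, 102 and 134 to 6.09, 7.37 and 7.51 (-4.00), and of non-specific lipid-transfer protein 2 Glyma.01G130200, from 29.9, 24.4 and 31.1 to 1.97, 2.02 and 3.55 (-3.50).

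**Figure D3:**
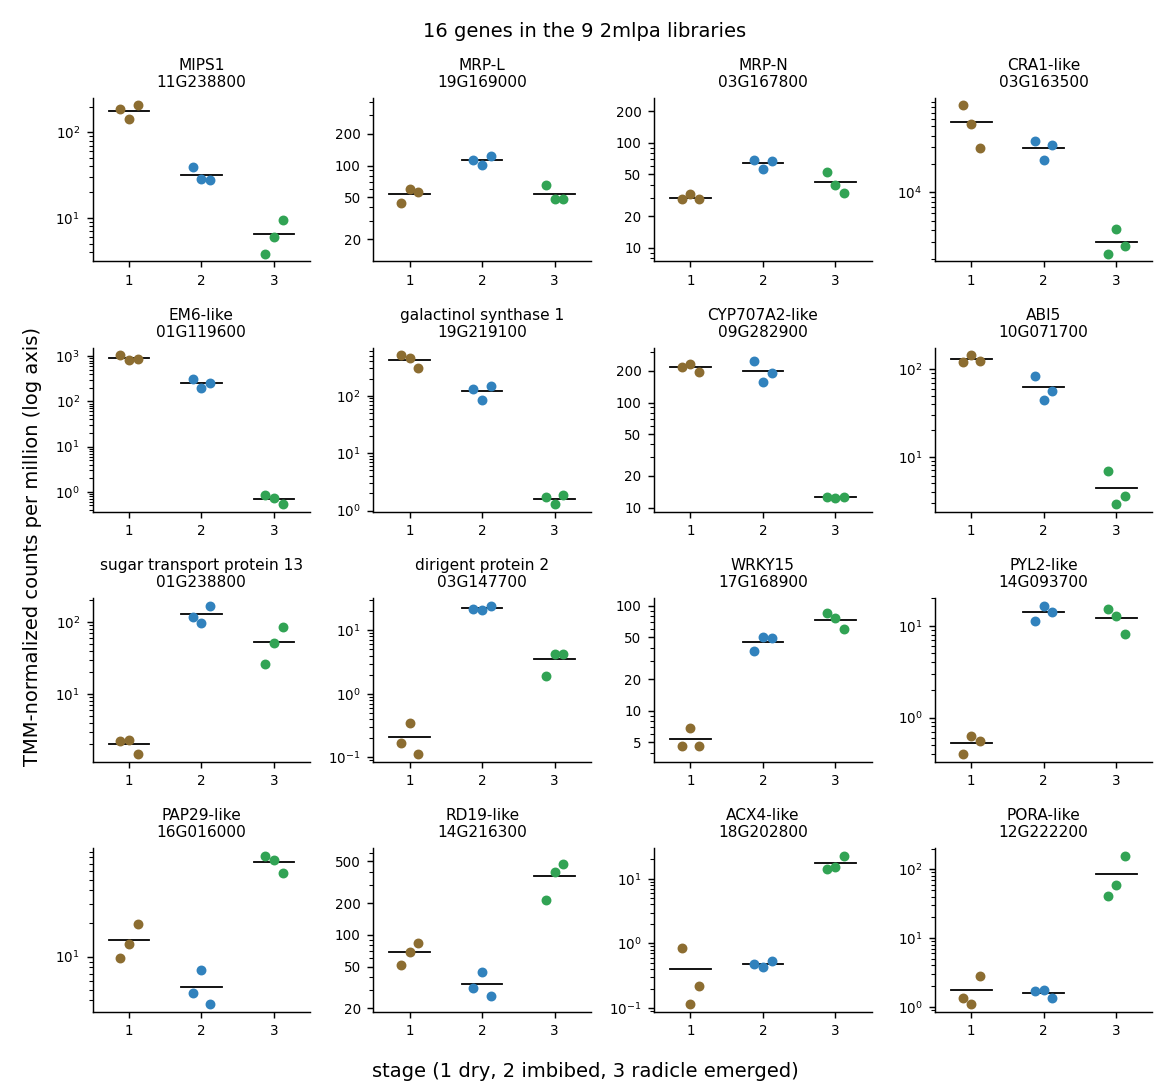
TMM-normalized CPM on log axes of 16 named genes in the 9 2mlpa libraries, by stage. Points are libraries and black lines are means of 3: EM6-like falls from 810 to 1042 in dry seeds to 0.53 to 0.86 at stage 3, and PORA-like lies at 40.7 to 158 at stage 3 and at 1.09 to 2.80 before.

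Genes of abscisic acid (ABA), the hormone that holds seeds dormant, were called in both directions at both steps. Of 24 tested ABA genes, 1 was higher and 4 lower at imbibition (median -0.26, or 7 and 1 with a median of 0.59 on library totals), and 4 were higher and 11 lower at stage 3 (median -1.37), where 17.2% of all genes were lower. The count lower at imbibition was 2 without replicate 1 or 2 of stage 1 or replicate 2 or 3 of stage 2. Over all genes 18.2% were higher and 10.8% lower at imbibition, and 17.1% were higher at stage 3. CYP707A2-like Glyma.09G282900, an ABA 8'-hydroxylase that breaks the hormone down, had 217, 235 and 195 normalized CPM in the 3 libraries of dry seeds, 246, 155 and 191 at stage 2 and 12.6, 12.3 and 12.8 at stage 3. The dry and imbibed libraries overlapped (-0.13 ± 0.19), and stage 3 was below both (log2 fold change -3.98 ± 0.22 (SE), FDR 1.86e-08). ABI5 Glyma.10G071700, a bZIP factor of the ABA response, had 121, 143 and 122.7 normalized CPM in the 3 libraries of dry seeds, 84.5, 44.9 and 57.1 at stage 2 and 6.85, 2.89 and 3.57 at stage 3, and fell at stage 3 (log2 fold change -3.81 ± 0.32 (SE), FDR 4.18e-07), while its first call (-1.05) was lost on library totals, without any 1 library of stage 1 and without replicate 2 or 3 of stage 2. RD29B-like Glyma.09G139600, which responds to drought and ABA, went from 2185, 841 and 1632 to 68.3, 17.1 and 13.01 at stage 3 (-5.57). PYL2-like Glyma.14G093700, an ABA receptor, was the member that rose at imbibition, from 0.398, 0.630 and 0.559 to 11.3, 16.6 and 14.1 (log2 fold change 4.72 ± 0.33 (SE), FDR 1.77e-07), and it held 15.2, 12.7 and 8.21 at stage 3. RD22-like Glyma.12G217300, a dehydration-responsive protein, rose at stage 3, from 2.59, 4.97 and 2.36 to 53.1, 38.2 and 74.2 (4.05).

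Genes of the growth hormones gave mixed counts. Over all genes 18.2% were higher and 10.8% lower at imbibition, and 17.1% were higher and 17.2% lower at stage 3. Of 14 auxin genes 7 were higher and 0 lower at imbibition (median 2.17), and 3 were higher and 5 lower at stage 3 (median 0.06), where the former count was 5 to 8 with each library left out and 11 on library totals, and the latter split 4 and 3 on library totals. ARF10-like Glyma.11G145500, an auxin response factor, had 0.228, 0 and 0.280 normalized CPM in the 3 libraries of dry seeds, 1.49, 2.28 and 1.47 at stage 2 and 12.3, 12.3 and 16.3 at stage 3, and rose at both steps (3.34 and 2.95). GH3.6-like Glyma.13G284600, which conjugates auxin to amino acids, fell from 116, 66.2 and 109.5 to 16.5, 10.9 and 7.12 at stage 3 (-3.08). Of 7 gibberellin genes, of the hormone that promotes germination, 2 were higher and 0 lower at imbibition, 1 higher without replicate 2 or 3 of stage 1 or replicate 2 of stage 2 or 3, and 3 were higher and 1 lower at stage 3 (5 and 0 on library totals). GASA1-like Glyma.17G258200, a gibberellin-regulated peptide, had 0.342, 0.573 and 0.559 normalized CPM in the 3 libraries of dry seeds, 1.31, 3.295 and 1.66 at stage 2 and 9.37, 17.2 and 16 at stage 3 and rose at both steps (2.09 and 2.75). The gibberellin receptor GID1B gene Glyma.03G148300 and GAI-like Glyma.05G140400, a DELLA repressor, were not called at either step, with 0.44 and -0.97, and -0.41 and 0.33. Of 13 ethylene genes, 4 were higher and 0 lower at imbibition, where 18.2% of all genes were higher, or 10 and 0 on library totals, and 3 were higher and 6 lower at stage 3.

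Photosynthesis genes rose after radicle emergence, in seeds germinated in the dark. Of 21 tested, 17 were higher and 0 lower at stage 3 (median 3.40, against 17.1% of all genes higher), the count was 17 or 18 with each library left out, and it was 19 on library totals. At imbibition, where 18.2% of all genes were higher and 10.8% lower, 1 was higher and 4 lower, or 3 higher and 0 lower on library totals. PORA-like Glyma.12G222200, a protochlorophyllide oxidoreductase of chlorophyll synthesis, had 1.37, 1.09 and 2.796 normalized CPM in the 3 libraries of dry seeds, 1.71, 1.73 and 1.34 at stage 2 and 40.7, 58.7 and 158 at stage 3. The stage 3 libraries were all above the earlier ones but spread over a wide range (log2 fold change 5.74 ± 0.50 (SE), FDR 4.93e-07), with replicate 3 the highest. The magnesium-protoporphyrin IX monomethyl ester cyclase gene Glyma.03G119500, of the same pathway, went from 0.510, 1.16 and 0.511 to 11.3, 13.8 and 24.9 (4.49), and the oxygen-evolving enhancer protein 3-2 gene Glyma.03G114600 from 0.0729, 0.318 and 0 to 7.93, 7.23 and 15.6 (6.18). Replicate 3 was again the highest at stage 3 for both. The light-harvesting gene of photosystem I Glyma.14G003400 rose from 1.93, 1.94 and 2.14 to 25.1, 16.3 and 22.1 (3.40), and RBCS3B-like Glyma.13G046200, a Rubisco small subunit, from 11.2, 13.6 and 11.8 to 24.7, 23.95 and 42.7 (1.32). Of 14 genes annotated with rRNA processing, 10 were higher and 0 lower at stage 3 (median 1.35), 8 to 10 with each library left out, and 0 were higher and 2 lower at imbibition, or 3 and 0 on library totals. The bystin-like gene Glyma.03G190900, of small ribosomal subunit assembly, went from 13.9, 12.1 and 14.4 to 36.9, 30.9 and 28.8 at stage 3 (log2 fold change 1.26 ± 0.19 (SE), FDR 8.57e-05).

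Genes for the use of reserves were called in both directions. Of 6 proteases of storage protein breakdown, 2 were higher and 1 lower at stage 3 (median 1.71), where 17.1% of all genes were higher, and 2 were higher and 1 lower at imbibition. The count higher at stage 3 was 2 to 4 with each library left out and 5 on library totals, where 3 were higher and 0 lower at imbibition. Over all genes 18.2% were higher and 10.8% lower at imbibition, and 17.2% were lower at stage 3. RD19-like Glyma.14G216300, a papain-type cysteine protease, had 51.8, 68.99 and 84.5 normalized CPM in the 3 libraries of dry seeds, 31.2, 43.9 and 26.3 at stage 2 and 216, 394 and 471 at stage 3. All stage 3 libraries were above all earlier ones (log2 fold change 3.41 ± 0.31 (SE), FDR 8.67e-07), at a mean of 737 TPM. Gamma-VPE-like Glyma.17G230700, a vacuolar processing enzyme, rose from 7.47, 8.498 and 6.42 to 24.2, 54.3 and 41.8 (2.42), whereas RD21-like Glyma.17G168300, another papain-type protease, rose at imbibition, from 1.76, 3.89 and 5.82 to 16.3, 50 and 20.2 (2.91). The dry and imbibed libraries of RD21-like did not overlap. ACX4-like Glyma.18G202800, an acyl-CoA oxidase of fatty acid breakdown and 1 of 3 tested genes of that process and the glyoxylate cycle, went from 0.474, 0.434 and 0.543 to 13.99, 15.2 and 22.8 (log2 fold change 5.15 ± 0.40 (SE), FDR 2.1e-07), while DCI1-like Glyma.19G123700, of the same list, fell at both steps (-2.87 and -2.26). PCK1-like Glyma.04G089700, which turns lipid carbon into sugar, was at 0.171, 0 and 0 in dry seeds and at 3.65, 4.22 and 5.62 in imbibed seeds. Arginase 2 Glyma.03G028000, which releases nitrogen from arginine, had 0, 0 and 0.0559 normalized CPM in the 3 libraries of dry seeds, 0, 0 and 0 at stage 2 and 6.69, 11.8 and 40.1 at stage 3. The stage 3 mean lay at least 203-fold over the floor of stage 2, and replicate 3 was the highest. Seed imbibition 2 Glyma.03G137900, a raffinose synthase-like gene, was the most abundant transcript at stage 3, with 9581 TPM against 1519 at stage 1 and 2000 at stage 2, and its rise from 3061, 3878 and 3130 to 11027, 10180 and 6264 normalized CPM (log2 fold change 1.45 ± 0.38 (SE), FDR 0.00488) lost its call without any 1 library of stage 2 or without replicate 1 or 2 of stage 3.

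The cell wall, water and cell cycle lists moved in both directions. Over all genes 18.2% were higher and 10.8% lower at imbibition, and 17.1% were higher and 17.2% lower at stage 3. Of 17 cell wall loosening genes 9 were higher and 3 lower at imbibition (median 2.22), and 3 higher and 6 lower at stage 3 (median -0.65, or 5 and 5 on library totals). EXLA1-like Glyma.11G096700, an expansin-like protein, had 5.92, 4.92 and 3.69 normalized CPM in the 3 libraries of dry seeds, 35.3, 38.7 and 34.6 at stage 2 and 25.8, 23.6 and 19.6 at stage 3 and rose at imbibition (log2 fold change 2.90 ± 0.20 (SE), FDR 1.98e-07). EXPA15-like Glyma.17G101400, an expansin, took the opposite course, with 99.2, 114 and 149.5 normalized CPM in the 3 libraries of dry seeds, 31.1, 26.3 and 30.2 at stage 2 and 3.76, 3.83 and 2.67 at stage 3 and steps of -2.05 and -3.09. EXLB1-like Glyma.17G147400 appeared at stage 3 mainly in replicate 3, with 0.541, 0.569 and 10.9 normalized CPM in the 3 libraries. Of 5 aquaporin genes, 0 were higher and 2 lower at imbibition (1 and 1 on library totals), and 1 was higher and 3 lower at stage 3. Aquaporin PIP2-2 Glyma.10G211000 fell from 165, 152 and 119.7 through 54.1, 52.8 and 60.7 to 5.496, 9.31 and 12.9 (-1.38, a call lost on library totals, and -2.60), whereas the vacuolar aquaporin TIP1-1 Glyma.03G185900 went from 9.37, 9.63 and 9.74 to 13.2, 27.6 and 72.2 at stage 3 (1.98). Of 10 cell cycle and histone genes, 0 were higher and 2 lower at imbibition (3 and 0 on library totals), and 1 was higher and 5 lower at stage 3. Histone H3-like Glyma.08G227400 fell from 145, 163 and 116 through 41.5, 36.9 and 48.4 to 1.24, 1.16 and 1.51 (-1.74, lost on library totals, and -5.02). The cyclin-dependent kinase inhibitor gene Glyma.01G185400, of a family that restrains division, rose from 0.146, 0.520 and 0.0958 to 7.01, 6.02 and 3.895 (4.41).

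Of the 5 most abundant genes of each stage, 3 at stage 2, 4 at stage 3 and all 5 at stage 1 had no annotation here. Glyma.09G185500 (chromosome 9, 41059351 to 41060705) was the most abundant in dry seeds, with 29624 TPM at stage 1, 19686 at stage 2 and 1587 at stage 3. Glyma.20G147600 fell from 22805 through 7758 to 226 TPM. Glyma.10G207100, with 22140, 10617 and 6446 TPM, was among the 5 most abundant genes of both stages 1 and 3. Its fall at the second step (log2 fold change -1.53 ± 0.45 (SE), FDR 0.00957) lost the call on library totals (-0.92), with RLE factors, with the replicate block and without any 1 library other than replicate 3 of stage 1 or 3. Glyma.17G128000 and Glyma.19G223300 rose to the top at stage 3, from 300.4 through 938 to 6781 TPM and from 51.6 through 185 to 4093 TPM, with log2 fold changes of 2.02 and 3.66 at the second step. The stage 3 libraries of Glyma.17G128000 and Glyma.19G223300 were above all earlier ones.

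The responses to ABA, water deprivation and heat, taken by ontology term, fell at the second step in more genes than they rose, also on library totals, where the counts higher and lower were 15 and 17, 13 and 20, and 5 and 18. Of 52 genes annotated with the response to ABA, 18 were higher and 11 lower at imbibition (23 and 2 on library totals), and 8 were higher and 22 lower at stage 3, where 17.1% of all genes were higher and 17.2% lower. At imbibition these shares of all genes were 18.2% and 10.8%. For the response to water deprivation the counts of 55 genes were 17 and 9 (26 and 2 on library totals), and then 10 and 25. For the response to heat 8 and 10 of 32 genes were higher and lower at imbibition (12 and 2 on library totals), and 3 and 18 at stage 3. The 26 protein folding genes gave 3 and 9 at imbibition, or 10 and 2 on library totals, and 3 and 9 at stage 3. Among 18 genes of seed germination 5 were higher and 3 lower at the first step (7 and 1 on library totals), and 6 were higher and 7 lower at the second (10 and 6). Of 8 genes annotated with photosynthesis, 1 was higher and 3 lower at imbibition (1 and 0 on library totals), and 5 were higher and 0 lower at stage 3. The 2 tested genes of protease inhibitors and seed lipoxygenases were lower at both steps, 0 of them at imbibition on library totals, and of 2 ribosomal protein genes 0 were called at imbibition and 1 was higher at stage 3. Of the genes that the study names by identifier, 6 of 6 LEA genes, 5 of 5 storage and maturation genes, 7 of 11 regulators and 4 of 7 ABA signalling genes were lower at stage 3, against 3, 2, 1 and 1 at imbibition. On library totals the counts at imbibition were 0, 0, 1 and 0, and without replicate 1 or 2 of stage 1 or replicate 2 or 3 of stage 2 they were 0, 1, 1 and 0. Rises were called among the regulators in 4 and then 2 genes, and in ABA signalling in 1 at each step. Of the 3 genes of phosphate homeostasis 2 were lower at imbibition (0 on library totals) and 1 at stage 3, and of 3 of the phytic acid pathway 1 and then 2 (0 and 1 on library totals).

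The course of 2mlpa was then compared with that of the normal lines, in 1 fit of 35 libraries from which replicate 1 of 2MWT-N at stage 2 was left out because it held 12679 counts. The change from stage 1 to stage 2 differed from the mean change of the 3 normal lines in 395 of 31564 genes (1.25%), with a more positive change in 2mlpa in 94 (0.298%) and a more negative one in 301 (0.954%). For the change from stage 2 to stage 3 the counts were 52 (0.165%), 23 (0.0729%) and 29 (0.0919%). On library totals, where the median of all genes was -0.43 for the first difference and 0.34 for the second, the splits were 27 and 1383 genes, and 85 and 9. Against the lines singly the first count was 101 for 2MWT, 524 for 2MWT-L and 27 for 2MWT-N, and the second 25, 43 and 2. Against each of the 3 lines in the same direction, 6 genes were called in the first comparison and 1 in the second. The first count was 872 without replicate 3 of stage 1 and 96 without replicate 1 of stage 2 of 2mlpa, and the second 3 without that same stage 2 library and 103 without replicate 3 of 2MWT-N at stage 3. In the same fit 5565 genes rose and 3463 fell at imbibition in 2mlpa, against 8333 and 5527 in 2MWT, 9016 and 5360 in 2MWT-L and 7004 and 4740 in 2MWT-N, with a median absolute log2 fold change of 0.79 against 1.12, 1.16 and 0.99. From stage 2 to stage 3 5426 rose and 5207 fell in 2mlpa, against 3897 and 4260, 3686 and 4347, and 3735 and 4515, with medians of 0.83 against 0.68, 0.65 and 0.74. These counts and medians were not tested against each other.

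**Figure D4:**
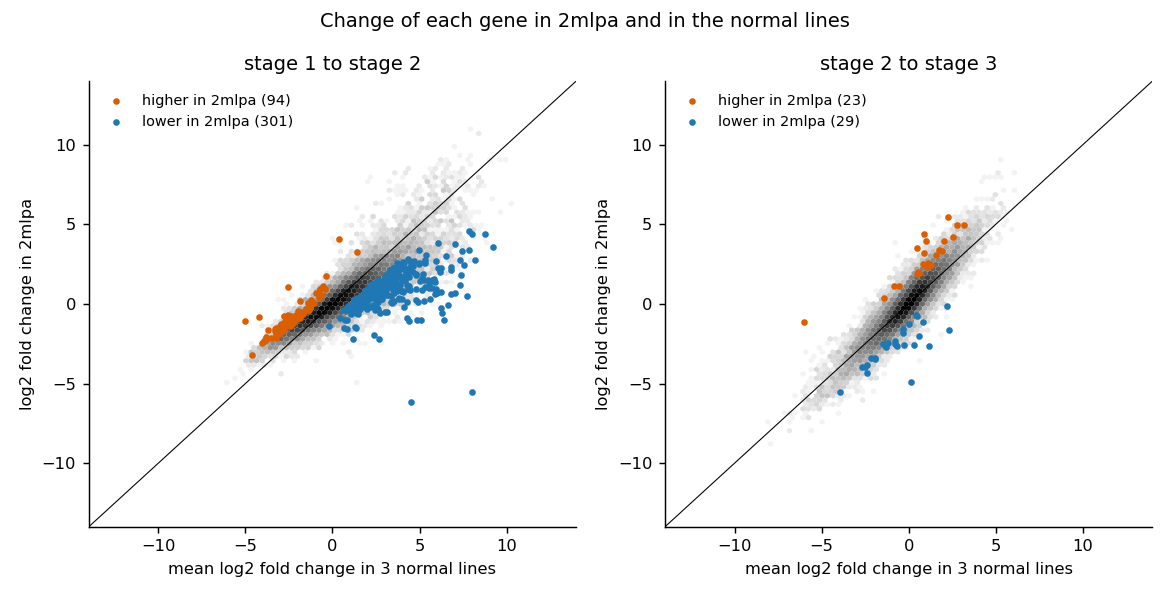
Log2 fold change of each of 31564 genes in 2mlpa (vertical) against its mean over the 3 normal lines (horizontal), from stage 1 to stage 2 on the left and from stage 2 to stage 3 on the right, with grey shading for the number of genes on a log scale and the line of equal change. Coloured points are the genes whose changes differed: 94 above and 301 below the line on the left, and 23 and 29 on the right.

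The genes called in these comparisons were chosen by them, and their levels are a description. The 301 genes with the more negative first change had a median of 2.75, 6.02 and 11.5 normalized CPM at the 3 stages in 2mlpa, and of 0.94 to 1.39, 9.62 to 9.68 and 10.6 to 12.8 in the normal lines. The median of 2mlpa was thus higher in dry seeds and lower in imbibed seeds, with a median change of 0.87 against 2.82 to 3.42 on the log2 scale, and lay within the range of the other lines at stage 3. The 94 genes with the more positive change had a median of 35.9, 19.95 and 6.94 in 2mlpa and of 53.3 to 67.1, 11.9 to 12.7 and 5.68 to 6.495 in the normal lines. The 6 genes called against each normal line, all with a more negative change, kept their call in all 44 alternatives. Among them the metalloendoproteinase 5-MMP gene Glyma.02G028700, of a family of proteases that act outside the cell, is the one with a name. It had 5.41, 2.903 and 3.43 normalized CPM in the dry-seed libraries of 2mlpa, 25.2, 36.3 and 31.6 at stage 2 and 172, 148 and 112 at stage 3. The normal lines had means of 1.96 in 2MWT, 0.752 in 2MWT-L and 0.853 in 2MWT-N at stage 1, and of 102 in 2MWT, 96.7 in 2MWT-L and 99.9 in 2MWT-N at stage 2. The difference in change was -2.73 against 2MWT, -4.01 against 2MWT-L and -3.86 against 2MWT-N on the log2 scale, with FDRs of 0.00321, 0.0001 and 0.000279 by the quasi-likelihood test. The gene thus rose at imbibition in every line, from a higher level and to a lower one in 2mlpa.

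The other 5 of these genes had no annotation here. Glyma.13G202500 had 23.97, 18.4 and 17.8 normalized CPM in dry seeds of 2mlpa and 53.97, 60.6 and 58.6 at stage 2, against means of 10.1 in 2MWT, 7.93 in 2MWT-L and 9.900 in 2MWT-N at stage 1 and 98.2 in 2MWT, 79.1 in 2MWT-L and 82.6 in 2MWT-N at stage 2, and differed by -1.75, -1.79 and -1.53. Glyma.17G059800 went from 9.396, 5.57 and 8.78 to 6.18, 7.54 and 6.56, while the means at stage 2 were 17.9 in 2MWT, 14.9 in 2MWT-L and 14.6 in 2MWT-N. Glyma.06G062100 went from 9.69, 7.58 and 4.48 to 18.6, 20.3 and 19.02, and its means at stage 1 were 1.803 in 2MWT, 0.382 in 2MWT-L and 1.39 in 2MWT-N. The other 2, Glyma.09G179400 and Glyma.16G050400, were at 0 in all dry-seed libraries of 2MWT and at means of 0.335 and 0.862 normalized CPM in those of 2mlpa. For the second change Glyma.07G000600 (chromosome 7, 80494 to 86999) was called against each line, at -5.03, -5.05 and -5.07, and in all 44 alternatives. It had 6.07, 3.14 and 2.21 normalized CPM in dry seeds of 2mlpa, 1.88, 0.805 and 3.92 at stage 2 and 0.0234, 0.114 and 0.0723 at stage 3, while the means of the normal lines lay between 9.33 and 18.6 at every stage. Every library of 2mlpa was below each of these means.

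**Figure D5:**
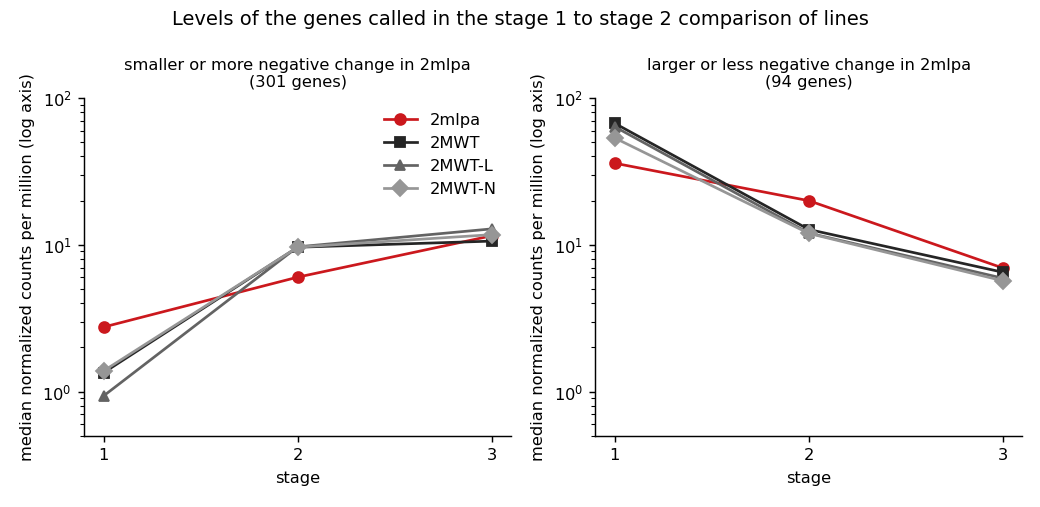
Median normalized CPM (log axis) by stage, in 2mlpa and the 3 normal lines, of the 301 genes with the more negative change from stage 1 to stage 2 in 2mlpa (left) and of the 94 with the more positive change (right). The red line of 2mlpa starts above and passes below the normal lines on the left (2.75 to 6.02 normalized CPM), and does the opposite on the right (35.9 to 19.95).

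Over all genes, 1.25% were called in the first comparison of lines and 0.165% in the second. The storage protein, LEA, raffinose, photosynthesis, WRKY, NAC, auxin and cell wall lists each held 0 calls by the quasi-likelihood test and were pooled. Other lists with 0 calls were left out of the pool, which was thus chosen by its outcome. Its 133 tested genes are too few for that count to lie apart from these shares. An unadjusted p under 0.05 by the quasi-likelihood test was reached by 31 of them in the first comparison and 25 in the second. The share of all genes at that threshold was not taken. DESeq2 called 4 and 6 of them, beside 1261 and 381 of all 31564 genes. The study's lists that gave these genes their names hold genes that it called between lpa and normal lines, in part from these libraries. Their selection thus favours such genes in this test, and the counts are no independent evidence of a difference between lines. Of 43 ERF genes 3 had a more negative and 0 a more positive first change, and 1 of 21 heat shock genes and 1 of 12 redox genes had a more positive one. Of 11 cell cycle and histone genes 1 had a more positive second change. The medians of the LEA genes were 0.76 and -0.64 on the log2 scale, beside -0.06 and 0.04 over all genes. Among the genes named by rule, the F-box gene Glyma.07G190100 had 1005, 761 and 961 normalized CPM in the 3 libraries of dry seeds, 231, 213 and 199 at stage 2 and 16.8, 16.2 and 12.7 at stage 3 in 2mlpa, and a difference of 1.72 ± 0.34 (SE, FDR 0.0033) in its first change, a smaller fall than in the normal lines. The call was lost against 2MWT or 2MWT-N alone, and without replicate 1 or 2 of stage 1 or replicate 1 of stage 2 of 2mlpa. The cyclin-dependent kinase inhibitor gene Glyma.01G185400 differed in its second change by 3.54 ± 0.62 (FDR 0.00644), a larger rise that was not called against 2MWT or 2MWT-N alone or without replicate 1 or 3 of stage 2 or replicate 2 of stage 3 of 2mlpa, nor without replicate 3 of 2MWT or replicate 2 of 2MWT-N at stage 2.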

How the data were processed

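RNA of 72 seed libraries had been sequenced by the authors, of which the 36 of the 4 MRP lines form the table used here. The authors aligned trimmed read pairs with STAR 2.5.2b to the soybean genome Wm82.a2.v1 and assigned them to genes with featureCounts, and the deposited table holds raw counts per gene for each library with the length of each gene. The submitters' processing notes name DESeq2 1.22.2 and R 3.5.1 for the study's own tests, whose results were not used, and 0 sample columns were left unused.

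Genes whose normalized counts averaged over 10 entered the quasi-likelihood F-test of edgeR 4.0.16 and limma 3.58.1 in R 4.3.3, with TMM factors. DEGs had an FDR (Benjamini-Hochberg) below 0.01 and changed by more than 1 on the log2 scale. The stage comparisons used the 9 libraries of 2mlpa. The comparison with the normal lines used 35 libraries, and its value is the change in 2mlpa minus the mean change of 2MWT, 2MWT-L and 2MWT-N. TPM were computed from counts and gene length. The SE is an approximation, the absolute log2 fold change over the square root of the F statistic of the quasi-likelihood test. For levels near the floor it depends on the prior count as the fold change does. The SD is that between libraries, so both include the spread between seed pools. Floor statements cover counting error only. Alternatives were DESeq2 1.42.0, glmTreat, RLE, upper-quartile and no factors, other filters and thresholds, a replicate block, single lines and each library left out, and library totals in place of TMM factors were added after seeing the data. The scripts were tested on simulated counts.

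The members and the lists were chosen with earlier results of these data known. Named genes are, per stage comparison, the 8 called genes with the largest rise and the 8 with the largest fall among those with a name, no overlap of libraries and a mean of 20 TPM or more, and from each list the 3 members with the highest TPM and the called extremes. For genes named by the largest rise or fall, libraries without overlap were thus a condition of the choice and are no further result. Also named are the 5 genes with the highest TPM at each stage, the genes the study names by identifier, and the 6 called genes with the largest positive and the 6 with the largest negative difference between lines. Of the genes the study names by identifier, the text describes only a part singly. Genes called against each normal line were added after their values were seen, as were a few members of the switched-on set. Names, homologs and ontology terms were taken from the study's annotation of its gene lists after seeing the data, since the reference table at hand pairs no identifiers of this annotation with symbols. The reference tables gave no promoters, and motifs were not searched.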

Additional observations from a re-analysis of the deposited data

Results flagged for a closer look

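The changes of 2mlpa and of the normal lines differed by a test of the difference itself, the interaction of line and stage in edgeR, in 395 genes from stage 1 to stage 2 and in 52 genes from stage 2 to stage 3. The values below are the change in 2mlpa minus the mean change of the 3 normal lines on the log2 scale, and those of genes with 0 counts in a group are fitted values that depend on the prior count, not bounds.

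From stage 1 to stage 2 the difference was positive for the ARF-type transcription factor gene Glyma.07G202200 (3.70), for the F-box gene Glyma.07G190100 (1.72) and for Glyma.02G113600 (3.93), Glyma.06G285500 (2.11), Glyma.08G008500 (3.62), Glyma.15G209900 (3.37) and Glyma.18G021100 (2.05), of which Glyma.08G008500 and Glyma.18G021100 overlap another gene. It was negative for PAP17 Glyma.05G247900 (-13.54), for Glyma.12G054500 (-10.7), Glyma.06G149500 (-7.46), Glyma.16G050400 (-7.21), Glyma.07G005900 (-6.87), Glyma.14G004400 (-6.69) and Glyma.05G032200 (-1.68). PAP17, a purple acid phosphatase, had 4, 5 and 0 counts in the dry-seed libraries of 2mlpa and 0 in all 3 at stage 2, so no fold is given for it. In TPM it was at 0 in the dry-seed libraries of 2MWT and 2MWT-L and at most 0.078 in those of 2MWT-N, and at 0.740 to 3.01, 2.43 to 7.09 and 1.23 to 2.72 at stage 2. Glyma.12G054500 had 2, 2 and 10 counts and then 0 in 2mlpa, and at most 0.830 TPM in any stage 2 library of the normal lines. Glyma.06G149500 and Glyma.07G005900 were at 0 in all dry-seed libraries of the 3 normal lines. Glyma.15G209900 was at 13.5 to 16.4 TPM in dry seeds of 2MWT but at 0 in all stage 2 libraries of 2MWT-L and 2MWT-N. Glyma.05G032200 was not called against any normal line alone.

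From stage 2 to stage 3 the difference was positive for the cyclin-dependent kinase inhibitor gene Glyma.01G185400 (3.54), for the cytochrome P450 CYP76G1 gene Glyma.03G189900 (2.34), for HB8 Glyma.04G085000 (1.69), a homeobox factor, and for Glyma.09G036000 (3.02), Glyma.11G056700 (3.22), Glyma.12G234800 (4.86) and Glyma.19G138000 (2.98). It was negative for Glyma.02G061800 (-2.86), Glyma.05G128000 (-2.65), Glyma.07G000600 (-5.05), Glyma.13G126500 (-3.76), Glyma.14G209000 (-2.36) and Glyma.15G115300 (-3.93). Glyma.15G115300 had 0 to 22 counts in the 9 libraries of 2mlpa. In the stage 2 libraries of the normal lines it was at 71.9 to 142 TPM, a higher level than the few counts of 2mlpa. The units differ, so no fold between the lines is given. The value of -3.93 thus rests on low counts in 2mlpa, in part at or near the floor. The calls of Glyma.16G050400 and Glyma.07G000600 held in all 44 alternatives, whereas each of the other genes named here lost its call in at least 1 of them, HB8 in 25.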

How the results depend on the processing

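No called fold change of a named gene turned its sign in the alternatives, but splits between higher and lower did. On library totals the heat shock genes went from 2 and 6 to 6 and 1 at imbibition, the ABA list from 1 and 4 to 7 and 1, and the inositol list from 2 and 2 to 3 and 0. In that setting 12936 of all 31451 genes were higher at imbibition and 746 lower, so the turn was not particular to these lists. With glmTreat, which tests against the fold threshold, the DEGs numbered 3728 at imbibition and 5405 from stage 2 to stage 3, and with library totals, chosen after seeing the data, 13682 and 13449. The remaining alternatives kept both counts within 1.5 times, among them DESeq2 (10020 and 11502) and no filter (9811 and 11861). With each library left out the counts were 7701 to 8976 and 8921 to 11136. The comparison with the normal lines moved more. The first count was 101 against 2MWT alone, 27 against 2MWT-N alone, 6 against each line, 1261 with DESeq2, 1410 on library totals, 1426 at an FDR under 0.05, and 96 to 872 with each library left out. The second was 25, 2, 1, 381 (227 more positive and 154 more negative, against 23 and 29), 94 (85 and 9) and 328 in the same settings, 118 with no filter, and 3 to 103 with each library left out. The cause was not tested. Deviations of same-numbered libraries of different stages had correlations of -0.201 to 0.195 over 9 pairs, against -0.192 to 0.295 over 18 pairs of different numbers. So few pairs cannot show whether libraries of the same number share more than that number. With the replicate number as a block the counts were 8477, 10096, 352 and 35. Of the named genes called at imbibition (116) and from stage 2 to stage 3 (164), library totals lost 45 and 16 calls, DESeq2 4 and 1, the block 11 and 4, and leaving out 1 library 1 to 28 and 1 to 12. The promoter motif search was not run. Depth limits genes near 3 counts per library, and 3 seed pools per stage limit all p-values.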
